A study of Rattus norvegicus with 6 samples.

Results

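Among the 4143 circular RNAs (circRNAs) listed for rat dental follicle cells, 276 spanned 50 kb or more of the genome between the donor and acceptor of the back-splice. They were chosen by span alone, end minus start plus 1 on the Rnor_6.0 build, leaving out collagen hosts, of which 0 reached 50 kb, and 5 junctions of the signal recognition particle RNA gene Rn7sl1. The induction group consisted of dental follicle cells from Sprague-Dawley rats 5 to 7 days old, at passage 3 to 4, kept for 28 days in medium with 5% serum and 1% of a liquid that held β-glycerophosphate at 1.000 mol/L, ascorbic acid at 0.028 mmol/L and the glucocorticoid dexamethasone at 0.010 mmol/L, as the labels give them. The control group consisted of the same kind of cells kept for the same time in medium with 5% serum alone. For both groups the labels also give growth medium with 10% serum. Each group comprised 3 samples by the labels. The number of rats is 3 in one label and 4 in another, and DNA and linear RNA had been removed before sequencing. The deposited values were 1 pooled column per group, so no value below has a replicate error and every interval covers counting error only.

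A circRNA forms when the spliceosome joins the end of an exon to the start of the same or an upstream exon, a reaction called back-splicing. The junction read shows where the circle was closed, but not which of the exons between its ends were kept. A span of many kilobases therefore usually holds long introns that are spliced out, and the mature circle can be short. Long introns flanking the joined exons, with repeats that pair with each other, are known to favour back-splicing. The dental follicle is the connective tissue sac around the developing tooth, and its cells can form cementoblasts, periodontal ligament fibroblasts and osteoblasts. Dexamethasone, ascorbic acid and β-glycerophosphate are the usual supplements for driving such cells towards mineral-forming cells. The comparison of induction with control asks which circRNAs differ during that culture.

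The listed counts summed to 164746 in induction and 137740 in control, and the totals behind the deposited TPM (counts over that total times 1000000, with no correction for length) were 221596 in induction and 203283 in control. Of 14 dental follicle and mesenchymal markers, 5 hosted circRNAs (Col1a1, Col1a2, Col3a1, Prrx1 and Runx2), with 51000 counts in induction and 40466 in control. Of 10 epithelial markers 0 hosted a listed circRNA. Of the leukocyte markers Dock8 did, with 19 counts in induction and 29 in control. Of the endothelial markers Flt1 did, with 50 in induction and 48 in control. Of the muscle, nerve and glia markers Dmd did, with 15 in induction and 10 in control.

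A host gene could be named for 152 of the 276 long-span circRNAs, from 102 genes. Another 121 carried only multi-copy names, which means names that recur on several chromosomes or across over 5 Mb of one, such as U6, a spliceosomal small nuclear RNA with many genomic copies. A further 2 carried several other names and 1 carried none. Some single hosts were the only name left of several once multi-copy names were dropped. Hic1 was left of 17 names on each of its circRNAs, and Pan3 of 9. Rps6ka5 was left of 9 at 54339 nt, and Uxs1 of 6 at 114494 nt. The start regions of 4 hosts are shown so that genes behind called long-span circRNAs can be compared, Med13l and Arl15 for those higher in induction, and Abcb1a and Eri3 for those lower. They are the hosts of highest mean TPM among the called circRNAs in each direction that had exactly 1 entry in the sequence table, which left out Atrnl1 and Pcdh19. Each is RefSeq sequence of assembly GRCr8, 250 bases before to 50 after the listed start, 5′ to 3′ on the gene's strand, with GC boxes (GGGCGG or its complement CCGCCC) in capitals. Med13l lies at chr12:43665770-43666069 on the minus strand, Arl15 at chr2:47171138-47171437 on the plus strand, Abcb1a at chr4:26397599-26397898 on the minus strand and Eri3 at chr5:136252441-136252740 on the plus strand.
Med13l: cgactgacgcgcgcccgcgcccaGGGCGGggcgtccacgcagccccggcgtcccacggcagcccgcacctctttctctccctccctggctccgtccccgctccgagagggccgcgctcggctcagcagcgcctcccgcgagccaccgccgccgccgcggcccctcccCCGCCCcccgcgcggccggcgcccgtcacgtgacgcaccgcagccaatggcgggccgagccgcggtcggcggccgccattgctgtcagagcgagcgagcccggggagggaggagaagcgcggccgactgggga
Arl15: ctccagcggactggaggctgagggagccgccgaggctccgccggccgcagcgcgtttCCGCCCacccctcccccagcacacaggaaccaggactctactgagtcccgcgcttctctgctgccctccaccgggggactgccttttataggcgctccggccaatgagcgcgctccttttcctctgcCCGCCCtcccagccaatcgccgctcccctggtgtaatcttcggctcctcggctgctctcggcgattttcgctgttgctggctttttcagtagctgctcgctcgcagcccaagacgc
Abcb1a: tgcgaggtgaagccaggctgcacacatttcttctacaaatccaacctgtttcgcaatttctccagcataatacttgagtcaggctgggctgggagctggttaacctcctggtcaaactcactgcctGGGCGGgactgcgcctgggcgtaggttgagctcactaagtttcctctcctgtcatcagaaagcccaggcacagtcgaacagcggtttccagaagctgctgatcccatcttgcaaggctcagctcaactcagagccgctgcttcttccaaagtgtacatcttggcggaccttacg
Eri3: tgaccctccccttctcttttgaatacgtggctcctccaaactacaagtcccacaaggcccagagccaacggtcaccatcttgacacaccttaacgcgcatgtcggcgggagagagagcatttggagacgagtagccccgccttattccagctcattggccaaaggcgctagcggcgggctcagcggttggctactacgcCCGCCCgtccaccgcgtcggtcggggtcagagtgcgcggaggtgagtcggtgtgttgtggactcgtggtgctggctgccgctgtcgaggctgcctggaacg
The Med13l window was 80.0% G and C with 50 CpG pairs, the Arl15 window 66.3% with 27, the Eri3 window 62.0% with 26 and the Abcb1a window 53.7% with 10. Of the 102 hosts, 78 had a sequence in the table. A GC box on either strand was found in 53 of those 78 (67.9%), in 70.0% of 1504 other circRNA hosts outside collagens and Rn7sl1, and in 33.1% of all 33469 promoters. The long-span hosts thus had GC boxes about as often as other circRNA hosts and more often than promoters at large. A TATA box (TATAAA, either strand) was in 6.41% of the long-span host windows, 5.45% of the other hosts' and 14.2% of all. The core letters of RUNX sites (TGTGGT, either strand) were in 11.5% of long-span hosts, 9.11% of other hosts and 17.3% of all. These are matches of letters in 1 window per gene, not bound sites.

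Long-span circRNAs were a small and lowly counted class with members called in both directions. Together they held 4114 counts in induction and 3637 in control. That was 2.50% of the listed counts in induction (95% Clopper-Pearson interval 2.42 to 2.57) and 2.64% in control (2.56 to 2.73). The summed TPM ratio of induction over control was 1.04 (0.992 to 1.09). It was 0.946 (0.904 to 0.989) with the listed counts as totals and 1.08 (1.03 to 1.13) with DESeq2 size factors, so the side of 1 on which it lay rests on the scaling. In bulk RNA of this kind, fewer cells of a type and less RNA per cell cannot be told apart. The median member had 7 counts in induction and 6 in control, against 9 in each column over all listed circRNAs. Under 20 counts in both columns together was the case for 173 members (62.7%), against 51.5% of all. The circRNAs of 10 to under 50 kb outside collagens and Rn7sl1 lay between. Their medians were 8 counts in induction and 8 in control, and 56.7% had under 20 counts, so low counts were not particular to the long spans.

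A circRNA is called higher or lower in induction where the TPM ratio was at least 2 either way and its 95% counting interval excluded 1. By this rule 22 of the 276 were higher, 18 were lower and 236 were neither. The called share was 14.5% (7.97% higher and 6.52% lower), beside 18.5% over all 4143 listed circRNAs (9.22% higher and 9.29% lower). With the listed counts as totals in place of those behind the TPM, 16 were higher and 22 lower, so the balance of the directions rests on the scaling. The calls lost there were the Atrnl1 and Mipol1 circRNAs named below and 4 without a named host. With an assumed coefficient of variation of 40% per column, 13 of the 40 calls were kept, 5 higher and 8 lower. Of the calls with a named host, those kept were of Med13l, Arl15, Cdc14a, Cdk14, Uxs1, Gas2, Rps6ka5 and Abcb1a. Among the 103 members with at least 20 counts, 16 were higher and 14 lower, a share of 29.1% beside 30.2% of all listed circRNAs with as many counts. The 1222 circRNAs of 10 to under 50 kb outside collagens and Rn7sl1 had 16.9% called. With at least 20 counts the share was thus near the background. By count, 11.8% of members were called beside 14.0% of all listed circRNAs at 10 to 19 counts. The shares were 30.9% beside 32.1% at 20 to 49 counts and 33.3% beside 29.1% at 50 to 99. At 100 or more counts they were 14.3% of only 14 members beside 27.3%. The median log2 ratio of the members was -0.12, which is the value of equal counts, beside -0.05 for all. In the authors' deposited table, which gives p-values for the 2 columns of reads and not for the conditions, 27 members passed an FDR of 0.05 with a 2-fold ratio, 14 higher and 13 lower. All 27 were also called here. The calls below on Nfib, Arid1b, Mipol1, Yeats2, Fndc3b and Ube3d did not pass that FDR. In the whole table, the same limits in the authors' deposited table held for 14.0% of all listed circRNAs.

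**Figure D1:**
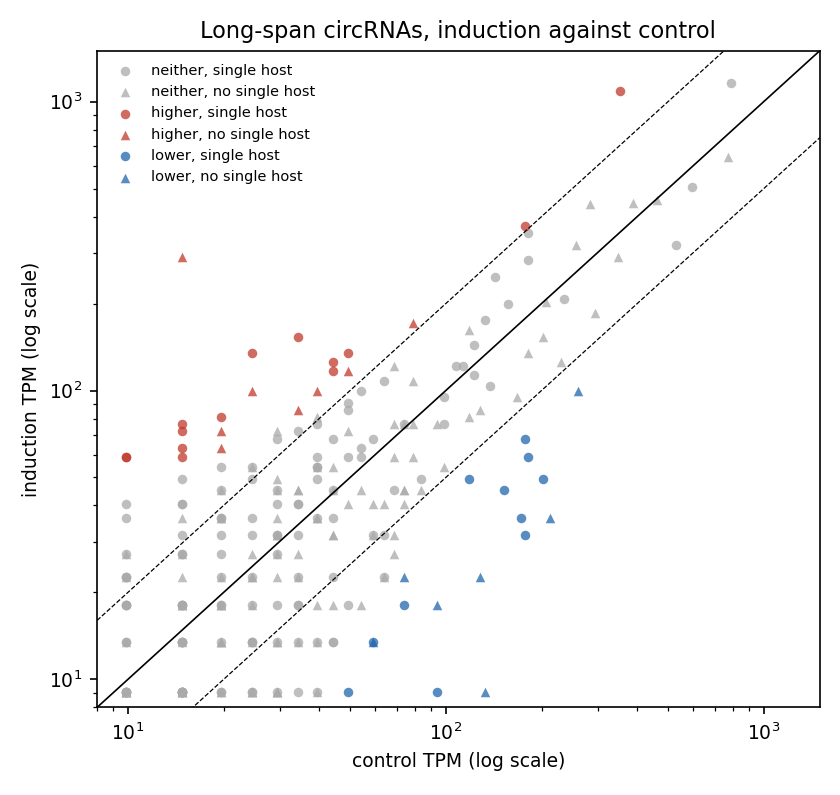
Long-span circRNAs plotted by control TPM (x, log scale) and induction TPM (y, log scale), 1 point each for 276 circRNAs, circles with a single host and triangles without. Red points were higher, blue points lower and grey points neither by the call rule, with the solid line at equal TPM and dashed lines at 2-fold. The 22 red and 18 blue points lie outside the dashed lines on either side, and single counts make the visible steps at low TPM.

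Spans ran from 50170 to 499852 nt with a median of 79382 nt, and the naming of hosts changed sharply along that range. Multi-copy names alone were carried by 14.0% of circRNAs of 20 to 50 kb, by 31.2% at 50 to 75 kb, by 33.3% at 75 to 100 kb and by 63.2% (67 of 106) at 100 kb or more. Called members occurred in every class of span. The 170 members of 50 to under 100 kb had 12 higher and 11 lower, the 61 of 100 to under 200 kb had 7 higher and 5 lower, and the 45 of 200 kb or more had 3 higher and 2 lower. The members just inside the 50 kb limit were a Pdlim5 circRNA of 50170 nt (3 counts in induction, 7 in control), one on chromosome 17 of 50185 nt (24 and 16), a Dyrk1a circRNA of 50190 nt (3 and 3) and a Cep112 circRNA of 50256 nt (4 and 2). Just outside lay one on chromosome 17 of 49962 nt (8 in induction, 17 in control), one on chromosome 4 of 49733 nt (3 and 4), an Arhgap10 circRNA of 49524 nt (8 and 3) and a Zfand3 circRNA of 49441 nt (8 and 4).

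**Figure D2:**
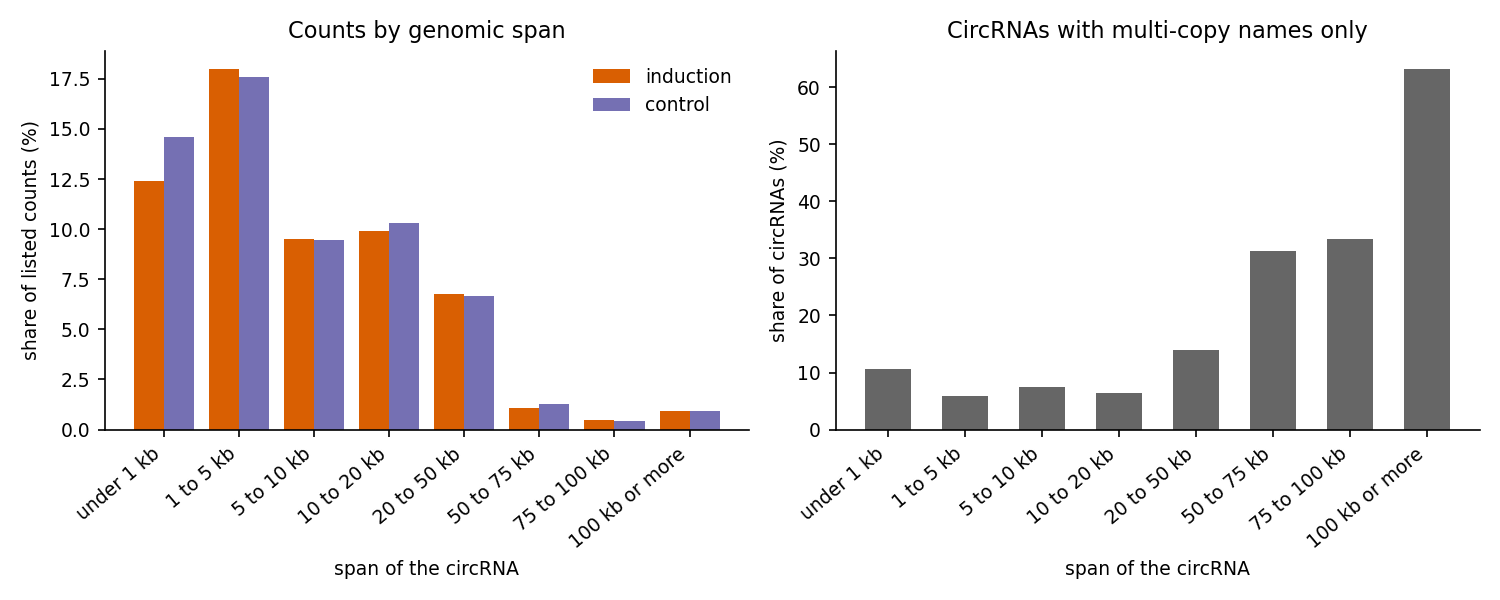
Left, share of all listed counts (%) by genomic span for induction (orange) and control (purple), collagens and Rn7sl1 left out. Right, share of circRNAs in each span class whose names are all multi-copy (%), which is 14.0% at 20 to 50 kb and 63.2% at 100 kb or more. The 3 classes from 50 kb up each hold 0.480% to 1.08% of the listed counts in induction and 0.424% to 1.26% in control.

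On the totals behind the TPM, members with a named host and members with multi-copy names lay on opposite sides of equal levels in sum. The 152 with a single host held 2342 counts in induction and 1851 in control, a TPM ratio of 1.16 (1.09 to 1.23), with 14 higher and 11 lower. The 121 with multi-copy names only held 1742 in induction and 1760 in control, a TPM ratio of 0.908 (0.849 to 0.971), with 8 higher and 7 lower. The first of these ratios rested on few circRNAs. Without the members of Hic1 and Med13l, an alternative chosen after the values were seen, the single-host ratio was 1.04 (0.976 to 1.12). Over all listed circRNAs the summed ratio was 1.10 (1.09 to 1.11). Listed totals shift every log2 ratio by -0.13, so the distance of both sums from 1 rests on the scaling.

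The most abundant long-span circRNA carried the name of Hic1, which encodes a zinc finger transcriptional repressor. It ran over 472692 nt (chr10:62010266-62482957) with 258 counts (1164 TPM) in induction and 160 counts (787 TPM) in control. Its ratio of 1.48 (1.21 to 1.81) was above 1 beyond counting error but under 2-fold. A second Hic1 circRNA shared its start, ended 217 nt further on and had 4 counts in induction and 2 in control. Both spans listed 17 names, of which Hic1 was the only one left after multi-copy names were dropped. No shorter circRNA was assigned to Hic1, so all counts assigned to this host came from these 2 spans.

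The second, from Med13l, was the most abundant member that passed the call rule. Med13l encodes a subunit of the kinase module of Mediator, the complex that links transcription factors to RNA polymerase II. The circRNA of 75675 nt (chr12:43501060-43576734) had 241 counts (1088 TPM) in induction and 72 counts (354 TPM) in control. The ratio was 3.07 (2.35 to 4.05). A Med13l circRNA of 65987 nt that shared its end had 2 counts in induction and 3 in control. The 2 shorter Med13l circRNAs held 387 counts in induction and 374 in control, a ratio of 0.949 (0.821 to 1.10). The interval of the shorter circles thus held 1, while that of this one did not.

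The 2 circRNAs next in abundance without a host were nested on chromosome 6 with a common end at 144275272. The one starting at 144211592 (63681 nt) had 143 counts in induction and 157 in control, and the one starting at 144189453 (85820 nt) had 101 in induction and 94 in control. Neither was called. Inside the longer one lay a listed circRNA of Esyt2, which encodes an extended synaptotagmin that tethers the endoplasmic reticulum to the plasma membrane. Others of the 12 most abundant were long-span circRNAs on chromosome 10 of 266498 nt (99 in induction, 79 in control), on chromosome 2 of 107421 nt (98 and 58) and on chromosome 14 of 251975 nt (71 and 52), all under 2-fold. One of Peak1, a pseudokinase of focal adhesions and the actin cytoskeleton, had 78 counts in induction and 37 in control. Its ratio of 1.93 (1.29 to 2.94) was above 1 beyond counting error but under 2-fold.

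Long-span circRNAs of transcription factor and chromatin genes included 5 that were higher in induction and 1 that was lower. Over all listed circRNAs 18.5% were called, and none of these 6 calls was kept with the assumed coefficient of variation of 40%. The transcription factor list caught 15 members from 7 hosts, with 2 higher, 0 lower and a median log2 ratio of 0.64, beside -0.05 for all listed circRNAs. The chromatin list caught 8 from 3 hosts, with 3 higher, 1 lower and a median of 0.55. In the whole table the same lists had 18 higher and 6 lower of 115 circRNAs (median 0.22) and 14 higher and 8 lower of 115 (median 0.06). Of 3 circRNAs from Bnc2, a zinc finger protein, the one of 128068 nt had 13 counts in induction and 2 in control. Its ratio was 5.96 (1.35 to 54.4). The others had 11 and 2 counts in induction against 8 and 2 in control. The called one and that of 137028 nt with the same start differed by 5.68-fold (0.272 to 131), within counting error. From Nfib, a nuclear factor I transcription factor, the circRNA of 117086 nt had 14 counts in induction and 3 in control (ratio 4.28, 1.19 to 23.2). One of 147581 nt with the same end had 17 in induction and 8 in control (1.95, 0.797 to 5.22). Their ratios differed by 2.16-fold (0.412 to 15.0), within counting error. The Nfib members summed to 31 in induction and 11 in control, a called ratio of 2.59 (1.26 to 5.70). The 2 shorter Nfib circRNAs held 20 in induction and 6 in control, a ratio of 3.06 (1.18 to 9.31). A higher level in induction was thus not particular to the long-span circles of Nfib. Gli3, a transcription factor of hedgehog signalling, gave a circRNA of 77783 nt with 63 counts in induction and 37 in control, a ratio of 1.56 (1.02 to 2.41) that was not called.

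Rere, which encodes a nuclear receptor coregulator, had 6 long-span circRNAs built from few ends. Of these, 4 shared the start at 167486001 on chromosome 5. The circRNAs ending at 167615430 were the called ones. The one from 167486001 (129430 nt) had 18 counts in induction and 4 in control (ratio 4.13, 1.36 to 16.8), and the one from 167516581 (98850 nt) had 16 in induction and 3 in control (4.89, 1.40 to 26.2). The circRNAs closing at the 3 nearer ends had 2 to 20 counts in induction and 3 to 11 in control, and none was called. No pair of Rere members sharing an end differed 2-fold beyond counting error. The 98850 nt circle lay 4.06-fold (0.837 to 27.3) above the one of 64494 nt with the same start. All 6 summed to 73 in induction and 34 in control, a ratio of 1.97 (1.29 to 3.05). Arid1b, a subunit of the BAF chromatin remodelling complex, gave one of 91438 nt with 26 in induction and 9 in control (2.65, 1.20 to 6.43). Yeats2, a reader of acylated histones, gave one of 192493 nt with 3 in induction and 12 in control, 4.36-fold lower (1.18 to 24.1).

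Runx2, without whose protein no osteoblasts form, had 2 members of 64311 and 83837 nt. They had 4 and 8 counts in induction against 4 and 4 in control, and neither was called. The 3 shorter Runx2 circRNAs held 1366 counts in induction and 647 in control, so the long-span circles made up 0.871% of the host's counts in induction and 1.22% in control. The list of osteoblast differentiation and bone matrix genes caught only these and the 2 Gli3 circRNAs among the members. They had 82 counts in induction, 49 in control and 0 called. Over all listed circRNAs that list had 4 higher and 0 lower of 44.

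Protein kinases and phosphatases hosted 21 members from 10 genes, with 1 higher, 1 lower and a median log2 ratio of -0.24, beside 14 higher and 11 lower of 121 (median 0.25) for the list in the whole table. Rps6ka5, a nuclear kinase downstream of the MAP kinases, had 5 of them. The main one, of 51574 nt (chr6:124625936-124677509), had 112 counts in induction and 121 in control, a ratio of 0.849 (0.651 to 1.11). One with the same start and an end 2765 nt further on (54339 nt) had 8 counts in induction and 35 in control, 4.77-fold lower (2.17 to 11.9). The 3 others had 2 or 3 counts in induction and 5 to 9 in control. All 5 lay below equal levels, and their sum was 128 in induction and 176 in control, a ratio of 0.667 (0.527 to 0.843). The 6 shorter Rps6ka5 circRNAs gave 278 in induction and 357 in control, a ratio of 0.714 (0.608 to 0.838), close to that of the long ones.

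Cdk14, a cyclin-dependent kinase known for its part in Wnt signalling, had 8 members, the most of any host. The most abundant, of 146249 nt, had 44 counts in induction and 32 in control (ratio 1.26, 0.782 to 2.06). One of 108763 nt (chr4:25978673-26087435) had 17 in induction and 3 in control, a ratio of 5.20 (1.50 to 27.7). The other 6 had 2 to 6 counts in induction and 2 to 10 in control, and none was called. The 8 summed to 84 in induction and 62 in control, a ratio of 1.24 (0.885 to 1.75), and the 7 shorter Cdk14 circRNAs to 201 in induction and 181 in control (1.02, 0.829 to 1.25). The ratios of the 7 members that were not called ran from 0.229 to 2.75, and most rested on too few counts for the rule to call them. A Cdc14a circRNA of 56308 nt, from a gene for a dual-specificity phosphatase that the list did not hold, had 30 counts in induction and 5 in control (5.50, 2.11 to 18.2).

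**Figure D3:**
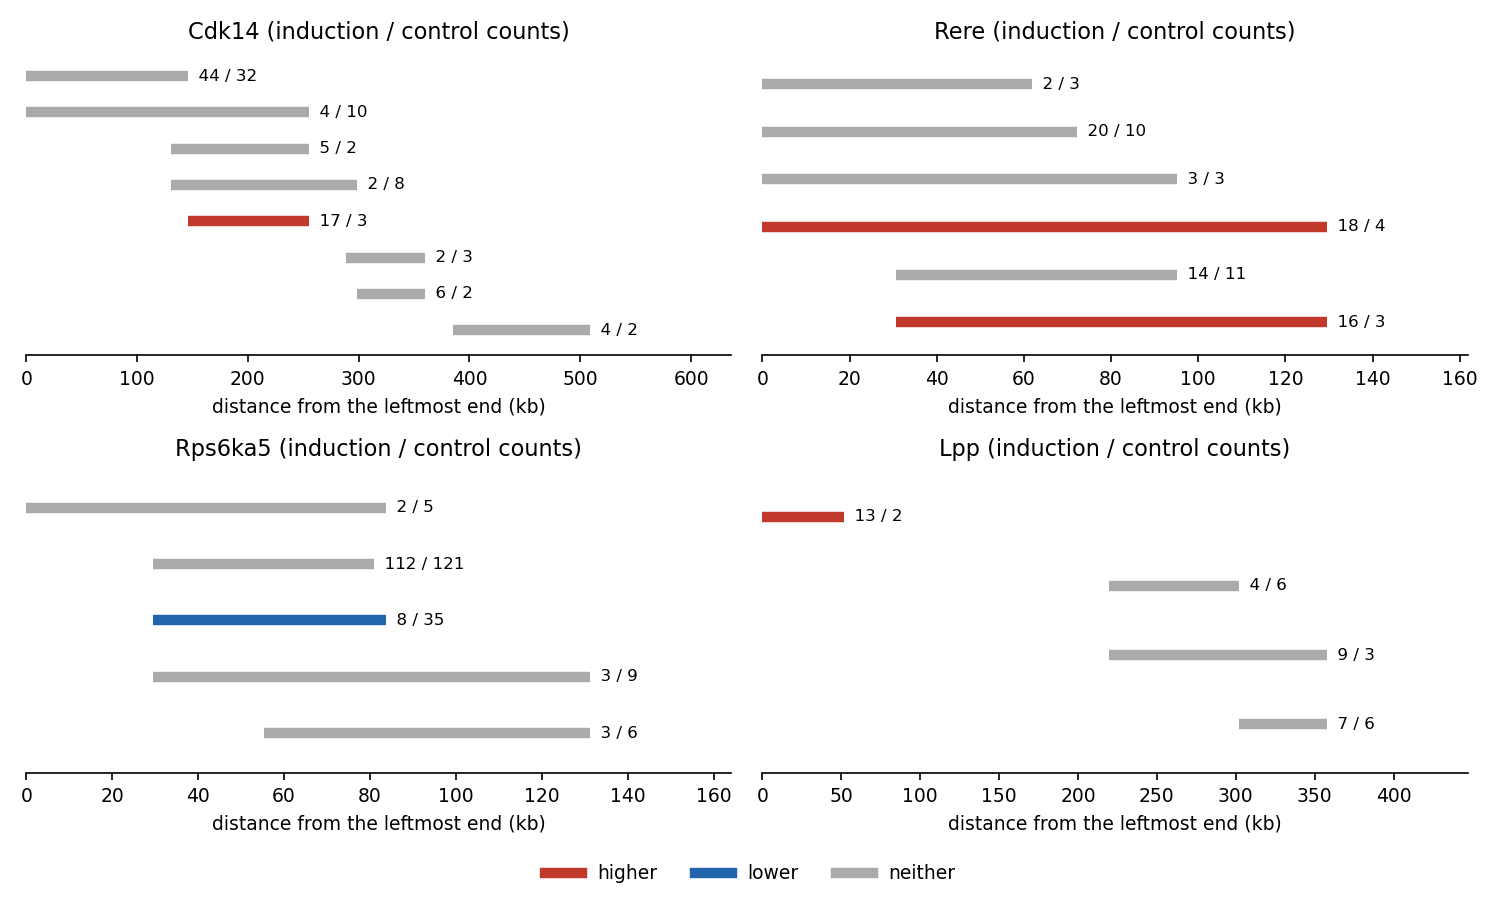
Long-span circRNAs of Cdk14, Rere, Rps6ka5 and Lpp, drawn to scale as bars along the distance from the leftmost end (kb), each with its induction and control counts. Red bars were higher, blue lower and grey neither in induction, and circles that share an end have different calls, as at Rps6ka5 with 112 and 121 counts beside 8 and 35.

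The list of adhesion, polarity and actin genes caught 9 members from 6 hosts, with 1 higher and 1 lower. Over all listed circRNAs that list had 9 higher and 16 lower of 140. Lpp, a LIM domain protein of focal adhesions, had 4, of which one of 51837 nt had 13 counts in induction and 2 in control (ratio 5.96, 1.35 to 54.4). The 3 others had 4 to 9 in induction and 3 to 6 in control. Cobl, an actin nucleator, gave one of 57304 nt with 10 in induction and 31 in control, 3.38-fold lower (1.61 to 7.73). Another 4 called members came from hosts outside that list. Sgcd, the delta subunit of the sarcoglycan complex, gave one of 64866 nt with 30 in induction and 10 in control (2.75, 1.31 to 6.31). Pcdh19, a protocadherin, gave one of 57852 nt with 15 in induction and 36 in control, 2.62-fold lower (1.40 to 5.14). Gas2, a protein that binds actin and microtubules, gave one of 57556 nt with 2 in induction and 19 in control. Fndc3b, a membrane protein with fibronectin type III domains, gave one of 116014 nt with 11 in induction and 24 in control, 2.38-fold lower (1.12 to 5.38). At 10.4-fold lower (2.50 to 91.7) the Gas2 circle had the greatest difference of any called member with a named host. Extracellular matrix genes hosted 3 members (of Adamts6, Adamts9 and Crim1) with 10 counts in induction and 9 in control, and 0 were called. The whole table had 13 higher and 14 lower of 95 circRNAs for the matrix list. The only member from the list of BMP, TGF-beta and Wnt genes was that of Crim1, a membrane protein that binds BMPs, with 2 counts in each column. For this list the whole table had 3 higher and 9 lower of 48.

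The membrane transport list caught 9 members from 7 hosts, with 1 higher and 1 lower. Over all listed circRNAs it had 13 higher and 8 lower of 130. The higher one came from Mboat2, a phospholipid-remodelling acyltransferase, with 28 counts in induction and 9 in control (2.85, 1.31 to 6.88). The lower one came from Slc8a1, the plasma membrane sodium-calcium exchanger, with 4 in induction and 15 in control (4.09-fold lower, 1.30 to 16.9). Trappc9, a subunit of a vesicle-tethering complex, gave one of the longest spans, 473056 nt, with 27 in induction and 22 in control (1.13, 0.617 to 2.07). Abcb1a, Uxs1 and Arl15 also hosted called members. Abcb1a, which encodes the drug efflux pump P-glycoprotein, had 3 members. One of 98701 nt (chr4:22298935-22397635) had 11 counts in induction and 41 in control, 4.06-fold lower (2.05 to 8.77), while one of 100370 nt had 27 in induction and 23 in control and one of 112106 nt had 5 and 4. Uxs1, the enzyme that makes the UDP-xylose from which proteoglycan side chains start, gave one of 114494 nt with 7 in induction and 36 in control, 5.61-fold lower (2.46 to 14.9). Arl15, an Arf-like small GTPase, gave one of 57402 nt (chr2:45801786-45859187) with 34 in induction and 7 in control (4.46, 1.94 to 11.9).

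Other lists held few members and no call. In the whole table the RNA-binding list had 5 higher and 5 lower of 64 circRNAs. The microtubule list had 2 higher and 1 lower of 47, and the ubiquitin ligase list 8 higher and 8 lower of 104. RNA-binding and processing genes hosted 4, among them Pan3, a subunit of a deadenylase that shortens poly(A) tails, with 55 counts in induction and 29 in control (1.74, 1.09 to 2.83). Microtubule and cilium genes hosted 4, of which 3 came from Dync1h1, the heavy chain of cytoplasmic dynein, with 50 counts in induction and 45 in control in sum. The ubiquitin ligase list caught only Nedd4, with 4 in induction and 3 in control. Ube3d, a ubiquitin ligase outside that list, gave one of 70536 nt with 2 in induction and 10 in control, 5.45-fold lower (1.16 to 51.2). Eri3, a gene of the 3′ to 5′ exoribonuclease family, gave one of 50650 nt with 13 in induction and 37 in control, 3.10-fold lower (1.61 to 6.36). A nearly identical Eri3 circRNA of 50644 nt, with the same end and a start 6 nt further on, had 7 counts in each column and was not called. The ratios of these Eri3 circles differed by 2.79-fold (0.692 to 11.5), within counting error. Mipol1 gave one of 55721 nt with 13 in induction and 3 in control (3.98, 1.09 to 21.7). Another Mipol1 circRNA of 67781 nt with the same end had 10 in induction and 6 in control and was not called. The ratios of these Mipol1 circles differed by 2.52-fold (0.411 to 19.6), within counting error. Atrnl1, a membrane protein related to attractin, had 3 members, of which one of 51518 nt had 82 in induction and 36 in control (2.09, 1.40 to 3.18).

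**Figure D4:**
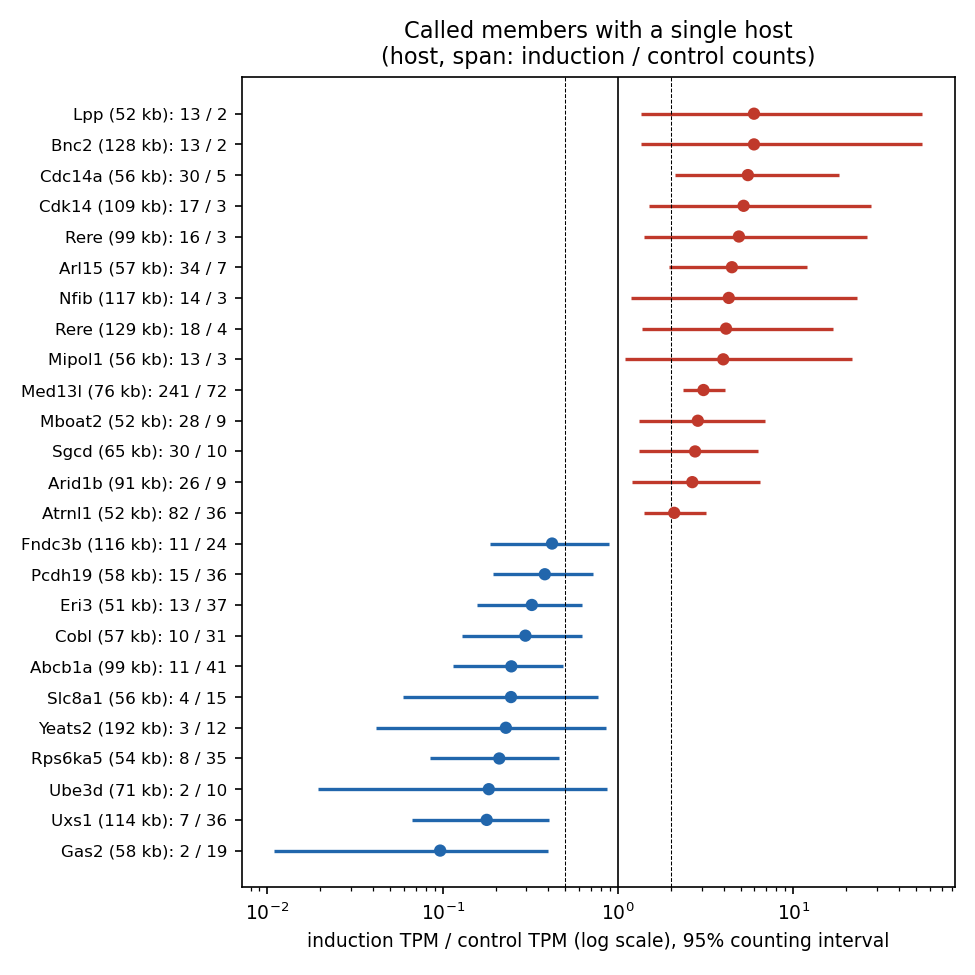
The 25 called long-span circRNAs with a single host, with the TPM ratio of induction over control (x, log scale) as points and 95% counting intervals as lines, each row giving host, span and induction and control counts. Red rows were higher and blue rows lower, dashed lines mark 2-fold, and the Med13l interval from 2.35 to 4.05 is the narrowest.

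Summed over the long-span circRNAs of a host, 8 of the 102 hosts were higher in induction and 9 were lower. With DESeq2 size factors 12 were higher and 9 lower. Sums over all of a host's circRNAs were called for 17.2% of 1965 hosts (7.79% higher and 9.41% lower). The sums were spread widely, with 74 hosts resting on a single long-span circRNA, 18 on 2 and 10 on 3 or more. Shorter circRNAs of the same host were listed for 82 of the 102. In those hosts the long-span circles took a median of 19.7% of the host's counts in induction and 16.5% in control. The 292 shorter circRNAs of these hosts had 26 higher and 24 lower.

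Setting long-span against shorter circles of the same host gives a ratio of ratios in which the scaling of the 2 columns drops out. It differed from 1 by at least 2-fold with an exact 95% interval excluding 1 in 13 of the 82 hosts (15.9%). The background was 632 hosts with no long-span circRNA and at least 2 listed circRNAs, collagens and Rn7sl1 left out. There the longest circRNA set against the others differed in the same way in 14.1%, so the long-span share was close to that background. The long-span circles were higher relative to the shorter ones in 6 hosts. At Med13l the ratio of ratios was 3.13 (2.31 to 4.27), at Cdc14a 4.92 (1.27 to 22.0) and at Arl15 4.68 (1.77 to 14.0). The shorter circles of Cdc14a had 13 counts in induction and 11 in control, and those of Arl15 41 and 40. At Dennd1a it was 5.13 (1.62 to 17.6), with 12 counts in induction and 7 in control for the long circles and 21 in induction and 64 in control for the shorter ones. Akap7 (6.93, 1.18 to 51.7) and Lpp (2.68, 1.03 to 7.23) were the others. The long-span circles were lower relative to the shorter ones in 7 hosts. At Uxs1 they were 4.98-fold lower (2.39 to 11.4), with 10 counts in induction and 39 in control for the long circles and 385 in induction and 301 in control for the shorter. At Eri3 they were 2.59-fold lower (1.47 to 4.70), with 20 in induction and 44 in control for the long and 619 in induction and 525 in control for the shorter. Fndc3b, Homer1, Ube3d and Yeats2 were also among the 7, at 2.21-fold to 8.81-fold lower.

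**Figure D5:**
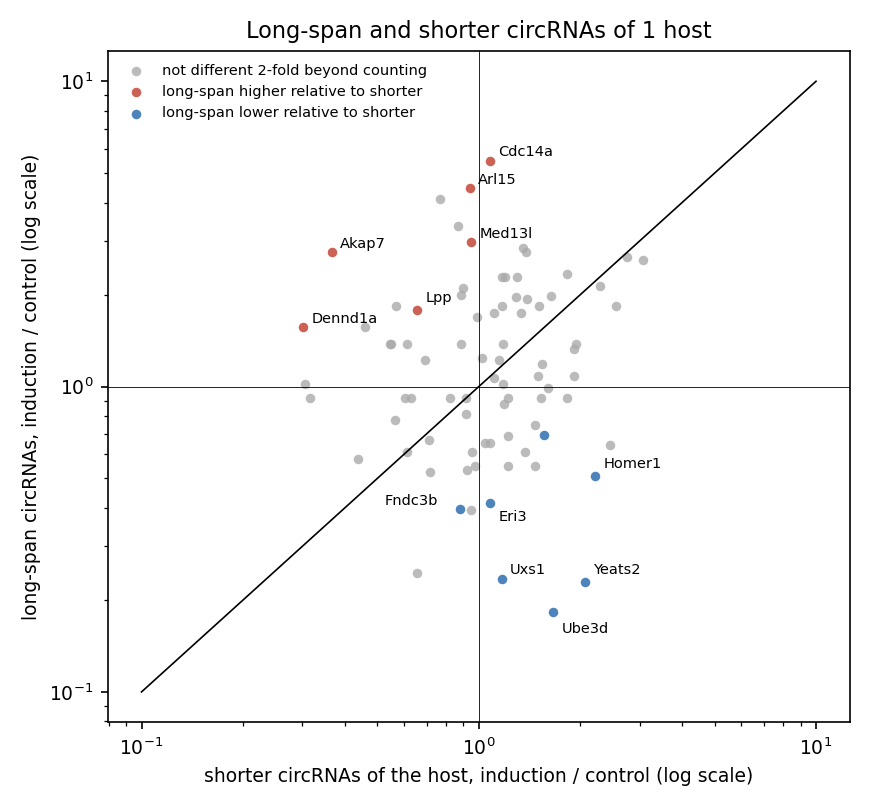
TPM ratio of induction over control summed over the shorter circRNAs of a host (x, log scale) and over its long-span circRNAs (y, log scale), 1 point for each of 82 hosts, with the line of equal ratios. Red and blue points mark the 6 and 7 hosts where the long-span circles were at least 2-fold higher or lower relative to the shorter ones beyond counting error, and all others are grey. Of the 13 hosts, 12 are labelled.

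Many long-span circRNAs reused the same splice ends. Of the 152 with a single host, 115 (75.7%) shared an exact start or end with another listed circRNA, against 39 of the 121 with multi-copy names (32.2%). The same shares over all listed circRNAs are not given here, so sharing of ends cannot be called particular to long spans. Pairs of members that shared an end numbered 75, and 5 of these (6.67%) differed in their ratios by at least 2-fold beyond counting error. Most of the pairs held a circle with few counts, where only large differences could pass. The share for such pairs over all listed circRNAs is not given here, so 6.67% has no background beside it. At Rps6ka5 the main circle and the one ending 2765 nt further on differed by 4.03-fold (1.74 to 10.5). At Cdk14 the circle of 254917 nt (4 counts in induction, 10 in control) lay 12.8-fold (2.09 to 110) below the called one that shares its end. Another 2 of the pairs lay on chromosome 17, where 5 members shared the start at 19160994. The one ending at 19250082 had 38 counts in induction and 16 in control (ratio 2.18, 1.19 to 4.19), while those ending at 19225009 and 19321551 had 41 and 64 in induction against 60 and 71 in control. The farthest of the 5 ended at 19417560, the end of a listed Atxn1 circRNA, and had 16 in induction and 10 in control. In 0 of the 75 pairs were the circles called in opposite directions. Pairs with both circles called were rare, so that 0 says little.

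Called circRNAs without a named host included the greatest differences in both directions. One on chromosome 15 (chr15:4933134-5145667, 212534 nt) had 64 counts in induction and 3 in control, a ratio of 19.6 (6.40 to 97.4). One on chromosome 14 (chr14:5607718-5766248, 158531 nt) had 2 counts in induction and 27 in control, 14.7-fold lower (3.70 to 128). Others lower in induction were those at chr18:13352206-13404495 with 8 in induction and 43 in control (5.86-fold, 2.72 to 14.4), chr2:12286272-12519843 with 5 in induction and 26 in control (5.67-fold, 2.14 to 18.9) and chr16:22561211-22793110 with 4 in induction and 19 in control (5.18-fold, 1.72 to 20.9). The other 10 called members without a named host had ratios of 2.18 to 4.04 where higher and were 2.63-fold to 4.36-fold lower where lower. Neither the genes nor the exons at these positions were assigned here.

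Shared ends and nested circles tied some of the unnamed ones to a gene. Of the 124 members without a single host, 12 shared an exact end with a circRNA of 1 named host, among them 2 of the protease gene Adamts6, and 1 each of Rps6kc1, Cacna1c and Ptk2. The one tied to Rps6kc1 was the most abundant of them, with 45 counts in induction and 42 in control. None of the 12 was called. Of the 152 with a single host, 110 had other circRNAs of that host within their span, and 0 had one of another named host. Since the hosts were set from the listed names, that count is a description and no check of the naming. Among the 124 others, 25 held circRNAs of a named host within their span, and 3 held circRNAs of 2 or more. These were chr10:67509991-67936827 (18 counts in induction, 8 in control) over Psmd11, RGD1310429 and Rhot1, chr18:27060526-27435986 (17 in induction, 15 in control) over Brd8, Fam13b and Kif20a, and chr13:109457218-109588736 over Rps6kc1 and Vash2.

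Some long-span circRNAs came as staggered sets of nearly equal span. Both ends were shifted the same way, by amounts within 2000 nt of each other, in 15 pairs covering 19 members, of which 12 had multi-copy names. At Dync1h1 the 3 members of 62510, 62797 and 63016 nt were shifted by 716 to 5434 nt. At Abcb1a the called member and the one of 100370 nt were shifted by 18308 nt at the start and 16639 nt at the end, and in the RefSeq table the closest protein-coding neighbours of Abcb1a were Abcb1b, its near copy in rodents, and Rundc3b. On chromosome 15, 4 members of 244272 to 245624 nt lay between 3692614 and 4016983, with 15 counts in induction and 29 in control in sum. Spans of 243288 to 245624 nt, inside one 4 kb window, occurred in 10 members, 9 of them with multi-copy names, on 5 chromosomes. The 4 kb below that window held 0 members and the 4 kb above it 2. That window was chosen after the values were seen, and the part of repeated sequence in it was not tested. One of the 10 was called, at chr4:61781328-62026637, with 22 counts in induction and 5 in control (ratio 4.04, 1.49 to 13.6).

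The longest spans were mostly low in counts. The longest of all, on the X chromosome (chrX:72363221-72863072, 499852 nt), had 4 counts in each column. One on chromosome 1 of 474698 nt had 16 in induction and 6 in control, a ratio of 2.45 (0.909 to 7.63) that was not called. Another on chromosome 1 of 439312 nt had 19 in induction and 7 in control, a ratio of 2.49 whose interval (1.00 to 7.01) only just excluded 1. The 45 members of 200 kb or more held 857 counts in induction and 664 in control, of which the most abundant Hic1 circle gave 258 in induction and 160 in control.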

How the data were processed

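Back-splice junctions were counted in rat dental follicle cells, in 3 induction and 3 control samples per the labels. Per the submitters' processing notes, reads were handled with FastQC and BWA (no versions) on Rnor_6.0. Not given in the sources used here are the caller, any filter or removal of duplicates, and the way 3 libraries became 1 column. Per the file headers, the deposited table gave 1 whole-number count and 1 TPM value per group and circRNA, and each TPM equalled the count over a total of 221596 (induction) or 203283 (control), times 1000000, within 0.1%. The log2 ratio deposited by the authors came from the TPM values, and their deposited p-value and FDR compare 2 columns of reads.

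The planned tests over 6 libraries could not be made, since each group had 1 pooled column, so the report has no p-values of its own. Members, gene lists and call rules were chosen with earlier results of these data known. Ratios were taken on the totals behind the TPM with exact Clopper-Pearson 95% intervals on the split of the counts, and were called at 2-fold with an interval that excludes 1. Ratios of ratios within a host used the exact conditional odds ratio. Intervals contain neither variation between rats nor duplicate reads. Every listed count was at least 1, so circRNAs seen in 1 group only were not analysed here.

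The 60 names that recur on several chromosomes or across over 5 Mb were removed, and a circRNA with 1 name remaining took it as host. Of the 102 hosts, 85 matched the RefSeq table of GRCr8 by symbol and 9 by an older symbol, and 8 did not match. The deposited name LOC102723236 is Rn7sl1 by RefSeq gene identifier, and its 5 junctions of 50 kb or more (7559 counts in induction, 6606 in control) were left out. Genomic sequence of Rnor_6.0 was not used here, so junction sequences, exons and strands are not given. Named circRNAs were the 12 of highest mean TPM, up to 8 with the greatest ratio in each direction, the 6 longest, 4 either side of 50 kb, those of hosts with 3 or more members, and for each list its called members and its most abundant one. Others (Fndc3b, Pcdh19, Sgcd, Mipol1 and Eri3 among the called, and the hosts named for shorter circRNAs, shared ends or nested circles) were chosen after their values were seen. Software was Python 3.11.15 with numpy 2.4.6, pandas 2.3.3, scipy 1.17.1 and matplotlib 3.10.9, and R 4.3.3 with edgeR 4.0.16 and DESeq2 1.42.0, used for scaling factors only. Results of some hosts are not reported here. Alternatives were other scalings, span limits, host rules, count filters, thresholds and an assumed variation.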

Additional observations from a re-analysis of the deposited data

How the results depend on the processing

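With each group in 1 pooled column, no interval contains variation between rats, and 173 of the 276 members had under 20 counts, where only large ratios could be called. No paired analysis was possible because the samples of a group were merged in 1 column. The replicate block, DESeq2 over the 6 samples and leaving out replicates were not run for the same reason. Of the 40 calls, 34 were kept with listed totals, 39 with TMM factors, 40 with those of DESeq2, and 13 with an assumed coefficient of variation of 40% per column (5 higher, 8 lower), and 0 reversed. The calls kept under that assumed variation include Med13l, Arl15, Cdc14a, Cdk14, Uxs1, Gas2, Rps6ka5 and Abcb1a. The cause of the differences below was not tested beyond the construction of each alternative.

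The number called was 82 at 30 kb or more, 17 at 100 kb or more, 25 with a single host, 17 as host sums and 22 at 4-fold, with 38, 39 and 41 under listed totals, TMM and DESeq2 factors and 27 by the authors' deposited FDR. The summed ratio of 1.04 was 0.946 with listed totals (0.904 to 0.989), 1.08 with DESeq2 factors (1.03 to 1.13), 1.16 with a single host and 0.986 without the 5 most abundant members. The median log2 ratio of -0.12 was -0.26 with listed totals, -0.13 with TMM, 0.10 with a single host, 0.11 with 20 or more counts, 0.06 as host sums and 0.11 with 1 circRNA a host, so its sign is not settled. Listed totals shift every log2 ratio by -0.13. The share of counts, given for induction and then control, was 5.44% and 5.71% at 30 kb or more, 0.933% and 0.952% at 100 kb or more, 1.98% and 2.16% under 200 kb, 1.42% and 1.34% with a single host, and 1.86% and 1.79% of the totals behind the TPM. It was 4.23% and 4.32% of listed counts without collagens and Rn7sl1, 7.09% and 7.44% with the Rn7sl1 junctions kept, and 2.40% and 2.50% without staggered members, the last 2 alternatives being chosen after the values were seen.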
